A study of Homo sapiens with 17 samples.

Results

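The 77 genes described here carry the symbols MRPL or MRPS followed by a number, with an A, B or C where paralogs exist, and they were picked by symbol alone from the 19222 genes with a read in the conversion table of the 1 h experiment. They encode proteins of the mitochondrial ribosome (mitoribosome). Of the 77, 50 encode proteins of the large subunit and 26 proteins of the small subunit. The remaining one, MRPS36, kept its symbol although its product belongs to the 2-oxoglutarate dehydrogenase complex. MRPS30 and MRPS18A are counted with the large subunit, where structures place their products despite the S in the symbol.

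All samples are HEK-293T cells, a human embryonic kidney line that carries the SV40 large T antigen. At 1 h, untreated cells and cells given low dose emetine (1.8 µM) were labeled with 500 µM s4U (3 libraries each), and 1 untreated and 1 emetine library had no s4U. At 2 h, untreated cells, cells given 1.8 µM emetine and cells given 240 µM emetine (3 libraries each) were all labeled with 250 µM s4U. Emetine is a plant alkaloid that blocks translocation of the cytosolic ribosome. 4-thiouridine (s4U) enters RNA made during the labeling and is read as a T-to-C mismatch after TimeLapse chemistry. Nothing in the labels says that the 3 libraries of a group came from separate cultures, so p-values measure the spread between these libraries, which may be technical.

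The mitoribosome translates the few mRNAs of the mitochondrial genome, nearly all of which encode membrane subunits of the respiratory chain. Its RNA comes from that genome, whereas every protein of it is encoded in the nucleus, made by the cytosolic ribosome and imported. Some of the proteins have counterparts in bacterial ribosomes and others arose in mitochondria. The cytosolic ribosomal protein mRNAs carry a terminal oligopyrimidine tract and are known for being abundant and stable, and the subunits of oxidative phosphorylation (OXPHOS) complexes encoded in the nucleus share the import route. These families are used for comparison.

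The 1 h libraries held between 22246279 and 40018063 reads assigned to genes. The 77 genes took 0.949% to 0.974% of these reads in the 3 untreated libraries and in emetine libraries 1 and 2, 0.759% in emetine library 3, and 1.01% and 1.02% in the untreated and emetine libraries without s4U. Emetine library 3 stood apart from the other libraries in all genes. Its difference from the untreated libraries tracked transcript length, with a rank correlation of 0.64 over 13498 genes, against 0.18 and 0.16 for emetine libraries 1 and 2. Without it the common coefficient of variation between libraries in edgeR was 6.45%, against 13.3% with it. Short transcripts were low in this library, and 67 of the 77 genes had a transcript shorter than the median of all genes tested (their median was 1260 nt, against 3290 nt), so the results on level are given with and without it. Markers of HEK-293 cells (VIM, CDH2, NEFM, NEFL, KRT18, KRT8, LHX1 and PAX2) were detected in every library. Leukocyte PTPRC was not among the genes with reads, HBG1, ALB and PECAM1 did not exceed 0.358 CPM (reads in 1000000 gene reads), and the fibroblast gene COL1A1 lay between 19.3 and 28.1 CPM.

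The promoters of these genes are known for binding sites of NRF1 and of ETS factors such as NRF2, which drive nuclear genes for mitochondria, and of YY1. RefSeq promoter windows (250 bases before to 50 after a start, GRCh38.p14) were at hand for 68 of the 77 genes. The letters CCGGAAG (ETS) stood on either strand in 29 of them (42.6%), against 18.4% of the 14132 genes of the table with such a window. AAGATGGCG (YY1) stood in 13 (19.1%, against 3.66%). GCGCATGCG (NRF1) stood in 3 (4.41%, against 3.47%). The ETS letters end as the YY1 letters begin, so that a single stretch can count for both, and 4 genes held both. A match is a description of letters, not of binding. The windows of 3 genes with values described below are shown 5′ to 3′ on the strand of the gene with the letters in capitals: MRPL52, whose labeled reads fell, holds 1 ETS and 2 YY1 matches, MRPL17, with the shortest half-life, holds NRF1 letters at 2 places (at one of them on both strands), and MRPS34, among the highest in level, holds 3 ETS matches.

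MRPL52 (chr14:22829637-22829936, plus strand): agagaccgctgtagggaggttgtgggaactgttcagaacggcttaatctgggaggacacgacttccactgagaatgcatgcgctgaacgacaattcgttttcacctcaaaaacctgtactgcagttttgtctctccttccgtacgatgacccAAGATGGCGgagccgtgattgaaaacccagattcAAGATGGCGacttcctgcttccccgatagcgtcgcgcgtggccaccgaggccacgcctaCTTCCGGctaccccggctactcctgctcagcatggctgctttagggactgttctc

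MRPL17 (chr11:6683291-6683590, minus strand): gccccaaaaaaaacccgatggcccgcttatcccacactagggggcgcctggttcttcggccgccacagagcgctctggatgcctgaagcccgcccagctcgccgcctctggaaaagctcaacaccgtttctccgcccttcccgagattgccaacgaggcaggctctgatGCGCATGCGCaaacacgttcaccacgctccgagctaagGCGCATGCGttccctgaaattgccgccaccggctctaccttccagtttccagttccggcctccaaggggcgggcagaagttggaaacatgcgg

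MRPS34 (chr16:1773085-1773384, minus strand): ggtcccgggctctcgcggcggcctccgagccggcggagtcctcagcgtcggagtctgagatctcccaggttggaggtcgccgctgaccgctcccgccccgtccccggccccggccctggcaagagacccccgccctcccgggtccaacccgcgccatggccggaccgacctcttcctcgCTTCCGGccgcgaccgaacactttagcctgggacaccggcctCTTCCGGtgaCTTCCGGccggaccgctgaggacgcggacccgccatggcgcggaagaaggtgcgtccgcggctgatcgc

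The 29 genes with an ETS match had a median level of 134 RPKM (reads per kilobase and per 1000000 reads, over the length of the canonical transcript) in untreated cells and the 39 without one 60.3 RPKM, with ranges of 21.3 to 295 and 7.67 to 403 RPKM that overlap. The medians of the half-life were 8.24 h and 8.41 h. Those of the transcript length, by which the levels are divided, were 1111 and 1458 nt. The 13 genes with a YY1 match had a median level of 72.2 RPKM and a median half-life of 7.01 h, beside 106 RPKM and 8.44 h in the 55 without. The median transcript lengths of these groups were 1358 and 1224 nt. No test was made of these differences. In 18 of the 77 genes the start lay head to head with that of another coding gene, in MRPL46 and MRPS11 with each other, 63 bases apart.

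All 77 genes were expressed in untreated cells. Their levels, as RPKM over the length of the canonical transcript, had a median of 90.1. The median was 7.12 RPKM for the 13498 of 13776 genes tested that had a transcript length. Each of the 77 was above 7.12 RPKM. Levels covered a 52.6-fold range, from 7.67 to 403 RPKM. The spread between untreated libraries was small, with a median SD of 4.58% of the mean and a highest one of 21.8%, for MRPS24. Over 100 RPKM were seen for 35 genes and under 30 RPKM for 9. The large subunit genes had a median of 106 RPKM and the small subunit genes 50.7 RPKM. When the union of all exons was taken as the length, the medians were 53.6 and 28.8 RPKM. The 29 large subunit genes with a bacterial counterpart had a median of 106 RPKM and the 19 specific to mitochondria 113 RPKM. The corresponding small subunit medians were 47.4 RPKM (16 genes) and 56.2 RPKM (10 genes). The 6 mitoribosome subunits with other symbols (AURKAIP1, CHCHD1, DAP3, GADD45GIP1, ICT1 and PTCD3) had a median of 80.6 RPKM, the nuclear OXPHOS subunits 234 RPKM and the cytosolic ribosomal proteins 1518 RPKM.

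MRPL12 (chr17:81703367-81707517) had the highest level by both lengths. Its product is the stalk protein of the large subunit, bound there in several copies where most proteins are present once. The levels in the 3 untreated libraries were 400, 408 and 402 RPKM, and every one was above all values of the gene that followed. That gene was MRPS34, a small subunit protein specific to mitochondria, with 290.0, 304 and 292 RPKM. MRPL20 had 299, 287 and 296 RPKM and MRPL51 288, 269 and 287 RPKM. The range of MRPL20 overlapped those of MRPS34 and MRPL51, whereas every value of MRPS34 was above those of MRPL51. The lowest level was that of MRPL42, with 7.82, 7.57 and 7.61 RPKM, followed upward by MRPL19 (14.1, 13.0 and 12.5 RPKM), MRPL50 (14.4, 14.6 and 15.7 RPKM) and MRPL35 (17.6, 17.2 and 16.8 RPKM). The 4 lowest have long canonical transcripts, of 15557, 7825, 3336 and 3723 nt.

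Half-lives were derived from the fraction new, the share of reads from RNA made during the hour of labeling. The share of reads of the 77 genes with at least 2 conversions was 5.60%, 7.50% and 7.43% in the untreated libraries and 5.26%, 6.32% and 6.03% in the emetine libraries. It was 0.0311% and 0.0292% in the libraries without s4U. Labeled reads were thus far above the background of sequencing mismatches in each labeled library. In untreated cells the median fraction new of the 77 genes was 6.49%, 8.32% and 10.1% in the 3 libraries, beside 9.26%, 12.3% and 14.7% for all 10763 genes that had 100 or more reads in every library. The median half-life was 8.28 ± 1.91 h (SD, n = 3), with 10.3, 7.98 and 6.54 h in the 3 libraries. The median of all genes was 5.58 ± 1.41 h (SD, n = 3). The half-lives of the 77 genes were on the whole longer: in the means over the untreated libraries, 59 of 77 were above the median of all genes. In emetine the median was 8.97 ± 0.644 h for the 77 genes and 6.15 ± 0.225 h for all genes (SD, n = 3). Both means were above the untreated ones, but the libraries overlapped. The emetine libraries gave 9.71, 8.52 and 8.68 h for the 77 genes, all within the range of the untreated libraries. For all genes they gave 6.15, 5.92 and 6.37 h, beside 7.13, 5.26 and 4.36 h in the untreated libraries. Half-lives derived in this way assume a steady state, and whether it held in emetine was not tested.

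Untreated library 1 gave the longest half-life for 72 of the 77 genes, so that half-lives in hours depended on the library. The order of the genes was much the same in each library. The fractions new of the 77 genes correlated between untreated libraries with rank coefficients of 0.92 to 0.95, and the means of untreated and emetine libraries with 0.97 (77 genes, all from the same libraries).

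**Figure D1:**
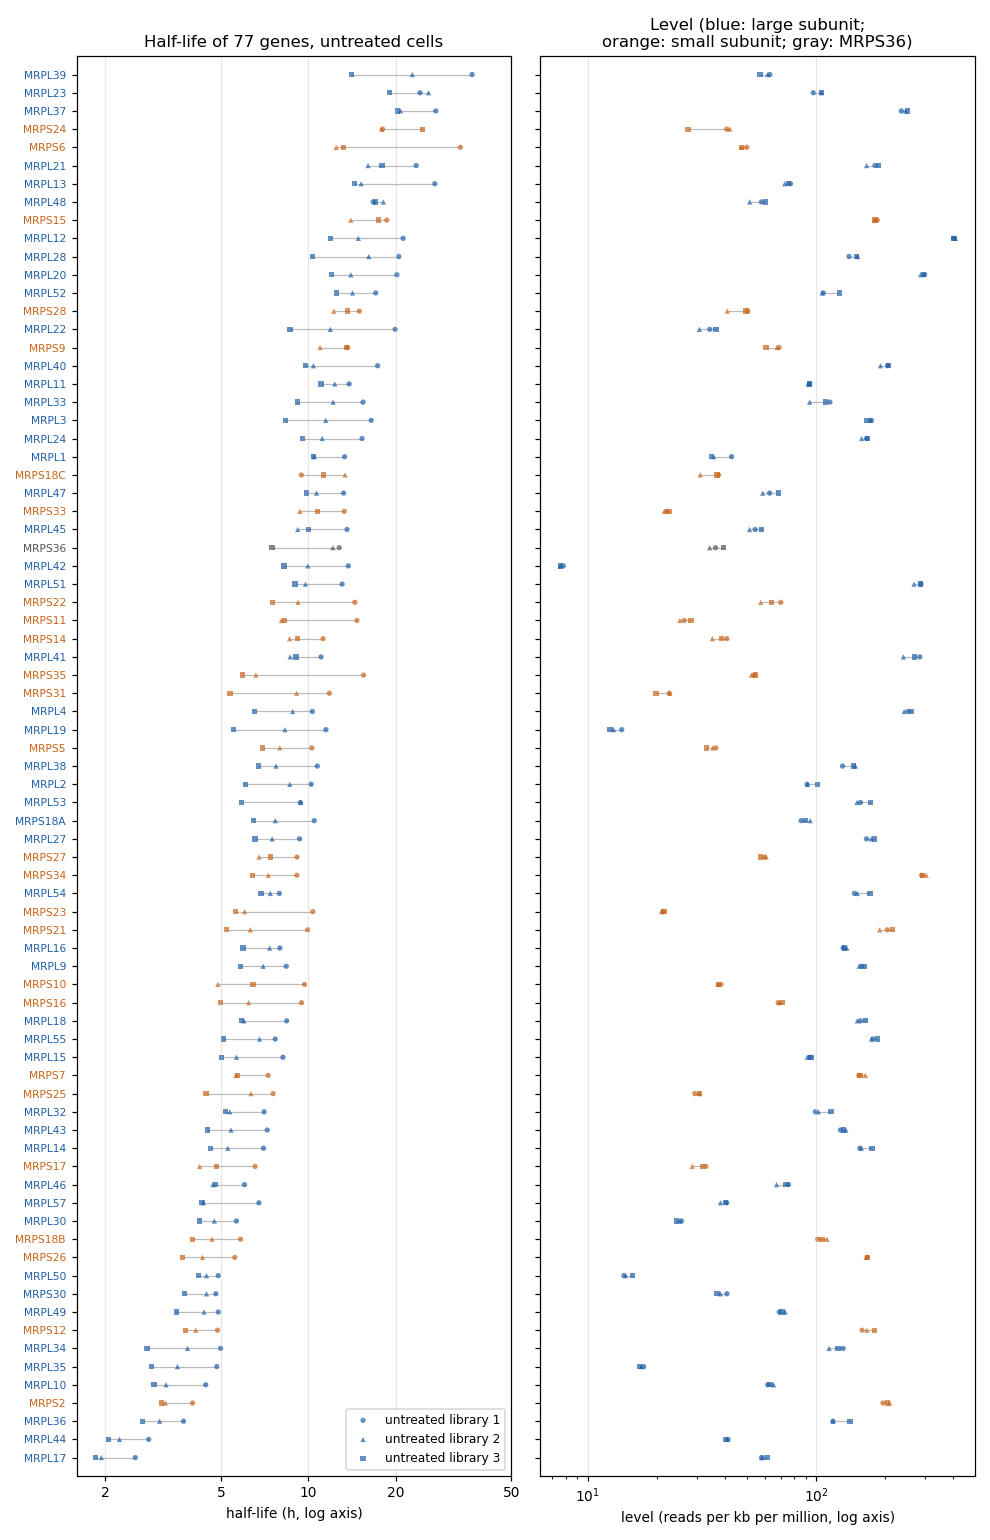
Half-life in hours (left) and level in RPKM (right), both on log axes, of each of the 77 genes in the 3 untreated libraries (circles, triangles and squares), ordered by mean half-life, with a gray line from the lowest to the highest library. The mean half-lives run from 2.11 h for MRPL17 at the bottom to 24.5 h for MRPL39 at the top, whereas genes of high and low level are found all along the order.

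Half-lives covered an 11.6-fold range. Of the 77 genes, 31 had a mean half-life over 10 h, 39 one between 4 and 10 h and 7 one under 4 h. The shortest was that of MRPL17, a large subunit protein with a bacterial counterpart at the exit of the polypeptide tunnel, with a fraction new of 23.9%, 30.0% and 31.2% in the untreated libraries and a half-life of 2.11 ± 0.37 h (SD, n = 3). MRPL44, related to ribonuclease III, had 21.8%, 26.6% and 28.6% new reads and a half-life of 2.37 ± 0.40 h (SD, n = 3). MRPL36 had 17.0%, 20.2% and 22.7% new reads and MRPS2 15.9%, 19.4% and 19.9%. Each of these 4 genes was above the median of all genes in every library.

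At the other end, MRPL23 had 2.82%, 2.64% and 3.59% new reads and a half-life of 23.1 ± 3.63 h (SD, n = 3). MRPL37 had 2.49%, 3.28% and 3.36% new reads. MRPL39 had 1.88%, 2.99% and 4.81%, and its half-life in the 3 libraries was 36.6, 22.8 and 14.1 h. The spread between libraries of these long half-lives was as wide as the distance between the genes, and their order among themselves cannot be read. MRPS24, a small subunit protein, had 3.77%, 3.80% and 2.77% new reads, counted over the part of its reads that no other gene shares (11.2% over all 8 libraries). None of these 4 genes overlapped the 4 shortest in any library.

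Subunit and origin went with small differences in half-life. Large subunit genes had a median of 10.4, 8.47 and 6.55 h in the 3 untreated libraries and small subunit genes 10.1, 7.03 and 6.44 h, lower in each library. In the large subunit the genes with a bacterial counterpart had a median of 8.50 h (mean of the 3 libraries) and those specific to mitochondria 8.76 h. In the small subunit the order was the other way, with 8.59 and 7.41 h. All of these classes overlapped over most of their range, and no test was made. The rank correlation of half-life with transcript length was −0.22 over the 77 genes (−0.28 over 10680 genes), with GC content −0.09 (0.09), and with level per kb 0.08 (0.44). All of these points share the same 3 libraries.

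Paralogs differed from each other in level and half-life. The products of the 3 MRPS18 genes are related to one bacterial protein and sit in different places of the mitoribosome. In the classes above only MRPS18C is counted as having a bacterial counterpart. MRPS18B is counted as specific to mitochondria and MRPS18A in neither class. MRPS18A, in the large subunit, had 90.1 ± 4.12 RPKM and a half-life of 8.21 ± 2.06 h. MRPS18B, in the small subunit, had 106 ± 4.97 RPKM and 4.84 ± 0.932 h. MRPS18C, which occupies the place of the bacterial protein, had 35.1 ± 3.48 RPKM and 11.4 ± 1.96 h (all SD, n = 3). In each untreated library MRPS18B had more new reads than the other two. MRPS12, at the decoding center, had 169 ± 11.0 RPKM and a half-life of 4.25 ± 0.56 h. MRPS30 had 38.6 ± 1.97 RPKM and 4.34 ± 0.539 h, and MRPS36 36.5 ± 2.52 RPKM and 10.8 ± 2.89 h (SD, n = 3).

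**Figure D2:**
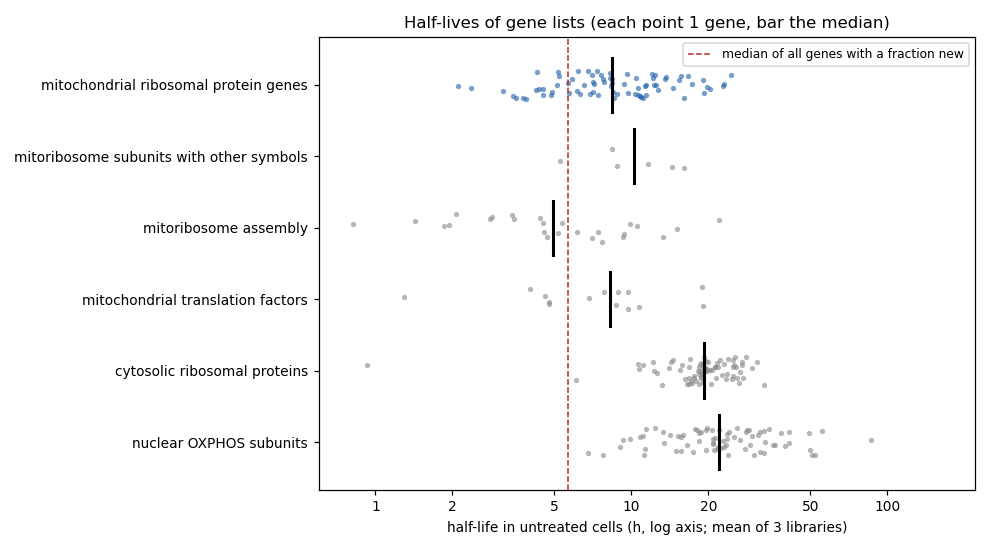
Half-life in untreated cells (h, log axis, mean of 3 libraries) of each gene of 6 lists, with the list median as a black bar and the median of all genes as a dashed line. The 77 mitochondrial ribosomal protein genes fill the space from 2.11 to 24.5 h, whereas most cytosolic ribosomal protein and OXPHOS genes lie to the right of the median bar of the 77 genes.

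Genes that act with the mitoribosome were compared in the same libraries. Of the other mitoribosome subunits, DAP3, a GTP-binding protein of the small subunit, had a half-life of 16.1 ± 5.94 h and PTCD3 5.25 ± 1.15 h, and the median of the 6 was 10.4 ± 3.15 h. The 26 assembly factors had a median of 5.02 ± 1.5 h and the 14 translation factors with a fraction new 8.25 ± 2.63 h. The nuclear OXPHOS subunits had a median of 21.9 ± 4.99 h (75 genes) and the cytosolic ribosomal proteins 19.2 ± 3.09 h (78 genes, all SD, n = 3 libraries). In each of the 3 untreated libraries the median of the 77 genes lay below those of both families and above that of the assembly factors.

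The 2 h experiment was used only as the authors' mean normalized count over their libraries, which was the same in the tables of the low and the high dose. It lists 9982 genes, among them 73 of the 77. MRPL23, MRPL33, MRPL36 and MRPS24 are not listed. The median of the 73 was 833 normalized counts, against 845 for all genes listed. These counts, which are not divided by length, ran from 156 for MRPL53 to 3770 for MRPL42, whose transcript is the longest of the 77. Divided by transcript length, the counts at 2 h correlated with the level at 1 h with a rank coefficient of 0.51 (73 genes). Both measures were divided by the same transcript length, which can by itself raise the coefficient. The 2 h counts pool untreated cells with cells given low or high dose emetine, whereas the levels at 1 h are of untreated cells. The experiments also differ in library kit, s4U dose and labeling time, and the effects of all these on the order cannot be told apart.

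After 1 h of low dose emetine, no mitochondrial ribosomal protein gene passed the test for a changed level. By edgeR's quasi-likelihood test with Benjamini-Hochberg adjustment over 13776 genes, 0 of 77 rose and 0 fell at an adjusted p under 0.05, where 2.64% of all genes rose and 0.0436% fell. At an unadjusted p under 0.05, 0 were higher and 4 lower (14.9% and 6.95% of all genes). DESeq2 called 1 of them, MRPS24, lower (1.13% of all genes) and none higher (5.95%). The log2 fold changes were small and mostly negative, with a median of −0.21, against 0.03 for all genes, and 75 of 77 were below 0 (46.0% of all genes). The 95% interval lay within 1 log2 unit of no change for 76 of the 77. In bulk RNA, fewer cells with a transcript and less of it per cell cannot be told apart. Levels are shares of the reads assigned to genes, so a change is relative to the other genes. With spike-in scaling the median of all genes was 0.71 log2.

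The size of the negative median rested on 1 library. In emetine libraries 1 and 2 the median log2 difference from the untreated mean was −0.08 and −0.07, and in emetine library 3 it was −0.56. Within emetine library 3 the difference of the 77 genes tracked transcript length with a rank correlation of 0.66, beside 0.15 and 0.27 in the other emetine libraries. Without emetine library 3 the median was −0.06, against 0.01 for all genes, and 64 of 77 were below 0 (48.0% of all genes). The emetine library without s4U differed from the untreated one by a median of −0.0006, with 39 of 77 genes lower (1 library each, no test). The cytosolic ribosomal proteins and OXPHOS subunits, also short, had medians of −0.37 and −0.33 in the full comparison and of −0.17 and −0.14 without emetine library 3. Of the 77 genes, 30 were lower in every emetine library than in every untreated one (15.2% of all genes) and 0 were higher (19.5%). Without emetine library 3 these counts were 31 (20.8%) and 3 (25.0%).

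**Figure D3:**
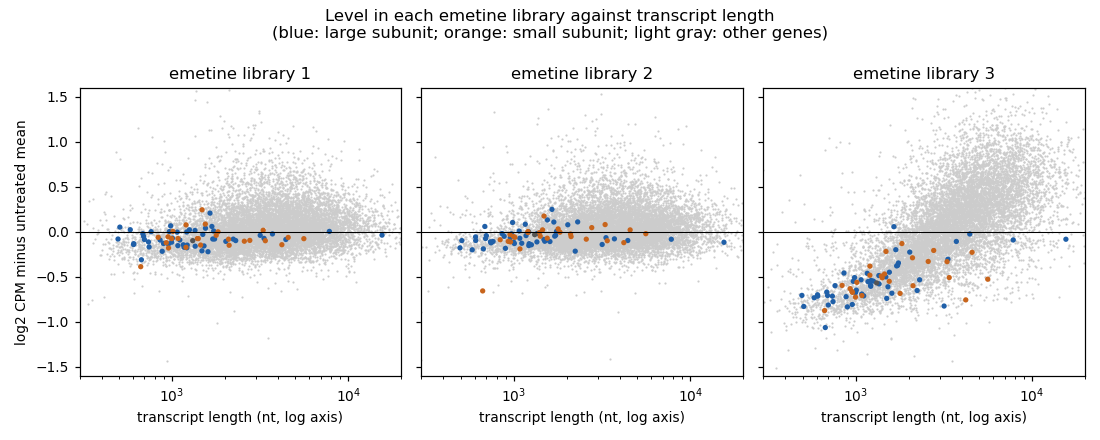
Log2 CPM in each of the 3 emetine libraries minus the mean of the untreated libraries, against transcript length in nt on a log axis, for the 77 genes (blue and orange, MRPS36 gray) and the other genes at 5 CPM or more (light gray). In libraries 1 and 2 the medians of the 77 genes lie near 0 (−0.08 and −0.07), with rank correlations with length of 0.15 and 0.27. In library 3 the 77 genes lie lower the shorter the transcript (median −0.56, rank correlation 0.66).

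The largest decrease was that of MRPS24 (chr7:43866558-43869893, minus strand). It had 27.1, 28.0 and 18.3 CPM in the untreated libraries and 18.2, 15.1 and 12.9 CPM in the emetine libraries, a log2 fold change of −0.67 ± 0.19 (SE, adjusted p = 0.106, edgeR). All emetine values were below all untreated ones, if only just, and without emetine library 3 the change was −0.57 (adjusted p = 0.0228). These reads are a small part of the transcript. Another 40478 reads, or 88.8% of those at this gene over all 8 libraries, could not be told from the read-through gene URGCP-MRPS24 and were counted for neither. With them added, a check made after seeing the data, the level was 208, 202 and 216 CPM in untreated and 182, 182 and 118 CPM in emetine libraries, a log2 fold change of −0.38 ± 0.16 (SE, adjusted p = 0.214).

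MRPL23, in the large subunit near the exit of the polypeptide tunnel, had 65.4, 71.1 and 71.1 CPM in untreated and 55.6, 60.5 and 32.8 CPM in emetine libraries (log2 fold change −0.48 ± 0.20 SE, adjusted p = 0.211, edgeR). The groups did not overlap, and emetine library 3 was far below the others. Without it the change was −0.25 (adjusted p = 0.0255). MRPL51 and MRPL40 followed with −0.35 and −0.33, and −0.15 and −0.14 without emetine library 3. Among the smallest p were also MRPL4, with a log2 fold change of −0.30 ± 0.13 (SE, adjusted p = 0.220), and MRPL11, with −0.32 ± 0.14 (SE, adjusted p = 0.225), both about −0.16 without emetine library 3. At the other end MRPS30 had 67.0, 62.9 and 60.7 CPM in untreated and 73.3, 75.5 and 66.0 CPM in emetine libraries (log2 fold change 0.17 ± 0.09 SE, adjusted p = 0.280). The lowest emetine value was below the highest untreated one. Without emetine library 3 the change was 0.23 (adjusted p = 0.0295). MRPS31 had a log2 fold change of 0.08, MRPL44 one of −0.0043 and MRPS35 one of −0.04, none past the test.

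Calls appeared where emetine library 3 was left out or the trend with length and GC content was removed. Without the library, MRPL23 and MRPS24 were called lower and MRPS30 higher, 2 and 1 of 77 where 3.83% and 9.91% of all genes were called. With the trend removed MRPL30, a large subunit protein with a bacterial counterpart, was called lower (log2 fold change −0.24, adjusted p = 0.0424) and none higher, where 4.05% and 5.62% of all genes were called. With both, MRPL11, MRPL30, MRPL42, MRPL57, MRPS24 and MRPS33 were called lower (11.0% of all genes) and MRPS30 higher (8.63%). No gene was called in all of these fits. Over the 77 genes, the rank correlation of fold change with transcript length was 0.55 in the main fit. With the trend removed in the full comparison it was −0.41. Trend removal thus left the longer of these transcripts with the lower fold changes, which limits the calls made with it.

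**Figure D4:**
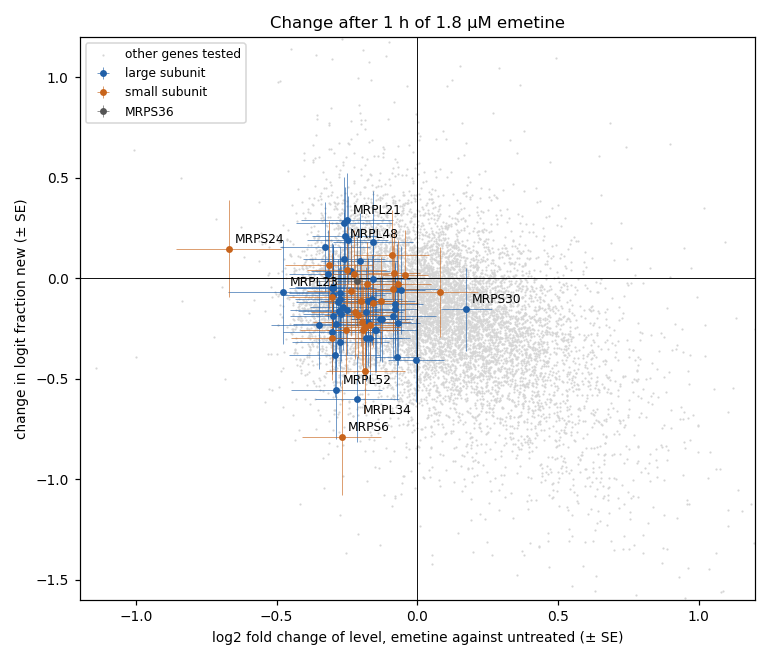
Change in logit fraction new against log2 fold change of level after 1 h of 1.8 µM emetine, with standard errors, for the 77 genes (blue, orange and gray) and the other genes tested (light gray). The 77 genes lie around −0.21 on the level axis and −0.12 on the fraction new axis, with MRPS24 at −0.67 on the left and MRPS6 at −0.79 at the bottom.

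The fraction new of the 77 genes did not pass the test for a change either. By limma on the logit of the fraction new, adjusted over 10763 genes, 0 rose and 0 fell, where 0.214% of all genes rose and 4.83% fell. At an unadjusted p under 0.05, 0 were higher and 4 lower (1.15% and 15.4% of all genes). The median change in logit was −0.12, against −0.16 for all genes, and 60 of 77 were below 0 (75.6% of all genes). The size of this median depended on the untreated libraries: it was −0.25 without untreated library 1 (−0.31 for all genes) and −0.03 without untreated library 3 (−0.04). With each library centered on its median it was 0.01 (−0.03). The 95% intervals reached from −1.36 to 0.75 over the 77, with a median reach of 0.43 to each side, so that moderate changes of a single gene would not have been detectable.

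The smallest p were those of MRPL34, MRPS6, MRPL52 and MRPS26, all lower. MRPL34 had 13.0%, 16.5% and 22.0% new reads in untreated and 8.77%, 10.9% and 10.4% in emetine libraries, a change in logit of −0.60 ± 0.21 (SE, adjusted p = 0.0841, limma). All emetine values were below the untreated ones. MRPS6 (chr21:34073224-34143034), a small subunit protein with a bacterial counterpart, had 2.06%, 5.40% and 5.11% new reads in untreated and 1.09%, 1.91% and 2.74% in emetine libraries (−0.79 ± 0.29 SE, adjusted p = 0.0996). Here untreated library 1 was within the range of the emetine libraries. MRPL52 had 3.98%, 4.77% and 5.39% new reads in untreated and 2.92%, 3.07% and 2.27% in emetine libraries (−0.56 ± 0.24 SE, adjusted p = 0.195), and MRPS26 a change of −0.46 ± 0.21 (SE, adjusted p = 0.236).

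In the other direction MRPL21 had 2.90%, 4.23% and 3.79% new reads in untreated and 4.47%, 4.76% and 5.04% in emetine libraries (0.29 ± 0.23 SE, adjusted p = 0.616, limma). MRPL48 had 4.06%, 3.75% and 3.99% in untreated and 5.42%, 4.73% and 5.22% in emetine libraries (0.28 ± 0.23 SE, adjusted p = 0.631). In both genes the groups did not overlap, and neither passed the test. MRPL37 and MRPL1 followed with 0.21 and 0.19. Of the 77 genes, 8 had a lower fraction new in every emetine library than in every untreated one (16.8% of all genes) and 3 a higher one (2.19%). Without emetine library 3 these counts were 18 (20.9%) and 3 (3.79%). Without untreated library 1, the library with the lowest fractions new, MRPL17, MRPL34, MRPL44, MRPL52, MRPS23, MRPS26 and MRPS6 were called lower (23.5% of all genes) and none higher (0.381%). With each library centered on its median, MRPL34 was called lower (6.95%) and none higher (1.17%).

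Labeled reads, the CPM of a gene multiplied by its fraction new, measure RNA made during the hour. Of the 77 genes 2 were called lower and 0 higher by limma on log2(CPM + 0.5), where 0.632% of all genes were lower and 0.260% higher. At an unadjusted p under 0.05, 21 were lower and 0 higher (10.6% and 1.64% of all genes). MRPL34 (chr19:17292609-17306843), a large subunit protein with a bacterial counterpart, had 13.0, 14.4 and 21.0 labeled CPM in untreated and 8.26, 9.51 and 6.47 labeled CPM in emetine libraries, a log2 fold change of −0.94 ± 0.24 (SE, adjusted p = 0.0197). MRPL52 (chr14:22829879-22835037), a large subunit protein specific to mitochondria, had 4.76, 5.63 and 7.56 labeled CPM in untreated and 3.45, 3.53 and 1.74 labeled CPM in emetine libraries (−0.96 ± 0.26 SE, adjusted p = 0.0376). In both genes all emetine values were below all untreated ones.

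The decrease of both was seen without emetine library 3 as well, with log2 fold changes of −0.80 and −0.68, but neither then passed the test (adjusted p = 0.477 and 0.757, limma; 0.0743% of all genes were lower and 0.121% higher), nor did they with any other library left out except untreated library 1. Without untreated library 1, 30 of the 77 genes were called lower (16.1% of all genes) and 0 higher (0.595%). With each library centered on its median, MRPL34, MRPL36, MRPL52, MRPS12, MRPS26 and MRPS6 were called lower (2.33% of all genes) and none higher (1.71%). MRPS6 was next with −0.96 ± 0.28 (SE, adjusted p = 0.0622). Over the 77 genes, the median log2 fold change of labeled reads was −0.37, against −0.14 for all genes. It was −0.25 without emetine library 3, against −0.13, and −0.24 without untreated library 3, against −0.01. Of the 77, 71 were below 0 (69.0% of all genes) and 20 were lower in every emetine library than in every untreated one (11.3%), beside 0 that were higher (3.31%). Without emetine library 3 these counts were 20 (15.3%) and 2 (5.31%).

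**Figure D5:**
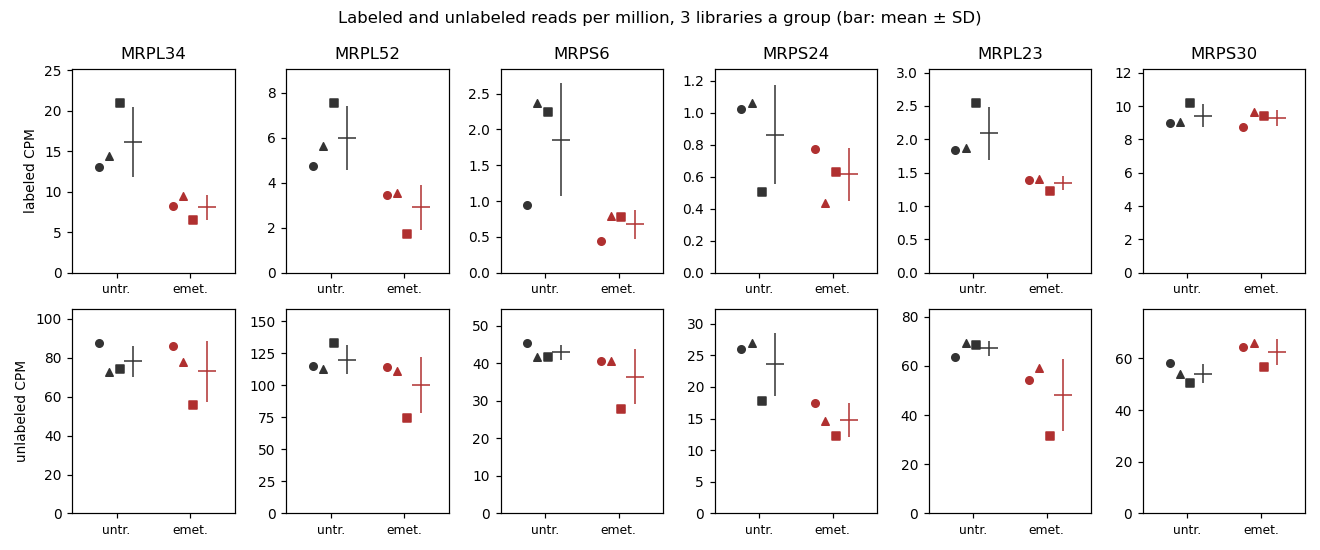
Labeled (top) and unlabeled (bottom) CPM of 6 genes in the 3 untreated (black) and 3 emetine (red) libraries, with the mean ± SD beside the points and axes from 0. Labeled reads of MRPL34 and MRPL52 are lower in each emetine library (8.26, 9.51 and 6.47 against 13.0, 14.4 and 21.0 for MRPL34), and emetine library 3 (square) has the lowest unlabeled CPM of its group in all 6.

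Unlabeled reads come from RNA made before the hour. None of the 77 genes was called, 0 higher and 0 lower, where 7.30% of all genes were higher and 0.0929% lower (limma). At an unadjusted p under 0.05, 0 were higher and 5 lower (19.4% and 7.07% of all genes). In 16 genes every emetine value was below every untreated one (16.2% of all genes) and in 0 above (23.9%), and without emetine library 3 in 16 (21.1%) and 4 (29.7%). The median log2 fold change was −0.23, against 0.04 for all genes, and without emetine library 3 it was −0.05, against 0.03. MRPS24 had 26.0, 26.9 and 17.8 unlabeled CPM in untreated and 17.5, 14.6 and 12.2 unlabeled CPM in emetine libraries (−0.65 ± 0.19 SE, adjusted p = 0.0793), and MRPL23 a change of −0.52 ± 0.21 (SE, adjusted p = 0.164). MRPL11 had a change of −0.34 ± 0.14 (SE, adjusted p = 0.179). Without emetine library 3, MRPL23 and MRPS24 were called lower and MRPS30 higher, where 3.56% and 13.7% of all genes were called.

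Of the genes that act with the mitoribosome, none of the 6 other subunits, 26 assembly factors and 15 translation factors was called for its level, where 2.64% of all genes were higher and 0.0436% lower. When emetine library 3 was left out, 5 assembly factors (DDX28, FTSJ2, GTPBP10, MRM1 and NSUN4), the subunit PTCD3 and the translation factor C12orf65 were called higher (9.91% of all genes) and the subunit AURKAIP1 lower (3.83%). DESeq2 called 2 of the 26 assembly factors higher, GTPBP10 and MRM1, and none lower (5.95% and 1.13% of all genes). In the fraction new, 1 of 26 assembly factors and 1 of 14 translation factors fell and none rose, where 4.83% of all genes fell and 0.214% rose. The assembly factor was DDX28, an RNA helicase of large subunit assembly, with a half-life of 0.817 ± 0.165 h (SD, n = 3) in untreated cells and a change in logit of −0.80 ± 0.23 (SE, adjusted p = 0.0266, limma). The translation factor was C12orf65, a release factor of stalled mitoribosomes, with −0.83 ± 0.23 (SE, adjusted p = 0.0183). Neither passed the test with any one library left out other than untreated library 1, without which 7 assembly factors and C12orf65 were called lower (23.5% of all genes). Unlabeled reads rose for 3 of 26 assembly factors, DDX28, GTPBP10 and MRM1, and for none of the other subunits or translation factors, where 7.30% of all genes rose. Leaving out emetine library 3 gave counts of 7 of 26, 1 of 6 and 1 of 14 (13.7% of all genes), and with any other library left out no gene of these lists but DDX28 was called. DDX28 had 28.9, 25.1 and 22.6 unlabeled CPM in untreated and 47.0, 43.6 and 34.5 unlabeled CPM in emetine libraries (log2 fold change 0.69 ± 0.15 SE, adjusted p = 0.0238). GTPBP10, a GTPase of large subunit assembly, had a change of 0.47 ± 0.12 (SE, adjusted p = 0.0426) and MRM1, a methyltransferase of the large subunit RNA, one of 0.67 ± 0.17 (SE, adjusted p = 0.0445).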

How the data were processed

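RNA was sequenced from HEK-293T cells after s4U labeling and TimeLapse chemistry. The authors trimmed reads (cutadapt), aligned them to hg38 (HISAT-3N, SAMtools) and deposited, for 1 h, counts of reads by gene, number of T and T-to-C conversions for 8 libraries, with spike-in RNAs. For 2 h they deposited tables of DESeq2 comparisons, whose mean normalized count (a pooled signal) was used. Their fold changes and p-values were not used. Libraries were matched to groups by their names.

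Counts were summed per gene and tested with edgeR 4.0.16 (quasi-likelihood, TMM, over 100 reads in total). Fraction new was the weight of a 2-component binomial mixture, with the background rate from the libraries without s4U and the new-read rate fitted per library. Half-life was −ln(2) × 1 h / ln(1 − fraction new), which assumes a steady state and labeling from the start of the hour. Fraction new (logit, at least 100 reads in each library) and log2(labeled or unlabeled CPM + 0.5) were tested with limma 3.58.1. P-values were adjusted over all genes, with calls at 0.05 (R 4.3.3). DESeq2 1.42.0 was an alternative. Both tests and the mixture were checked on simulated data. The simulations held no library with a length trend, and for level less spread between libraries than the 13.3% seen here. They do not cover the setting in which calls depended on 1 library. Lengths and coordinates came from GENCODE (GRCh38), and all 77 symbols matched. Of the 77 genes, 36 have annotated pseudogene copies, which can take reads. Named are the genes called in a test or with the smallest p, the 4 highest and lowest in each measure, and MRPL12, MRPS12, MRPS18A, MRPS18B, MRPS18C, MRPS30 and MRPS36. The 77 genes, lists and tests were chosen with earlier results of these data known. Labels share replicate numbers between groups, and a fit with these as a block was an alternative. One marker of another cell type is not reported here.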

Additional observations from a re-analysis of the deposited data

How the results depend on the processing

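For level, the count of called genes among the 77 was 0 in the main test and with DESeq2 size factors. It was also 0 with no filter on reads, with spike-in scaling and with the ambiguous reads added after seeing the data. Spike-in scaling moved the median of all genes to 0.71 log2. Its count is of tests against no change, not against that median. The count was 1 with the DESeq2 Wald test (MRPS24) and 1 with the length and GC trend removed. It was 7 with that trend removed and without emetine library 3. With 1 library left out it was 0 to 3, 3 being without emetine library 3. The median level change ranged from −0.31 to −0.06 with 1 library left out, the latter without emetine library 3, and was −0.12 with the trend removed. For fraction new, the count was 0 in the main test, 1 at 500 or more reads (MRPS6, lower, as were 3.22% of all genes), 1 when libraries were centered (MRPL34, lower, 6.95%), 1 with the share of reads with at least 2 conversions (MRPL34, lower, 5.41%), and 0 to 7 with 1 library left out, 7 being without untreated library 1. For labeled reads it was 2 in the main test, 6 when centered and 0 to 30 with 1 library left out, 30 being without untreated library 1. For unlabeled reads it was 0 in the main test and 0 to 3 with 1 library left out, 3 being without emetine library 3. The cause of these shifts was not tested. The median half-life was 11.5 h from the share of reads with at least 2 conversions, which misses new reads with fewer, and 7.26 to 9.15 h with 1 untreated library left out. Levels near no change also changed sign: MRPL44 was at 0.0515 with trend removal and without emetine library 3, at 0.0355 with trend removal alone or with a replicate block, and at −0.0679 to 0.0871 with 1 library left out. With 1 library left out, MRPS35 ranged from −0.0678 to 0.000906 and MRPS31 from −0.0110 to 0.208.

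No pairing of libraries by replicate number was seen. With 3 libraries a group and emetine library 3 apart from the others, a pairing could have been missed. The deviations of same-numbered libraries from their group means correlated across genes with 0.08, 0.02 and −0.12 for log2 CPM and with 0.06, 0.003 and 0.02 for logit fraction new. With the replicate block the counts were 0 for level (with and without trend removal), 0 for fraction new, 2 for labeled and 0 for unlabeled reads. The number of 3 libraries a group limits the precision of each change, and the depth of a gene limits its fraction new: the 77 genes had 343 to 14880 reads in a library.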
